A study of Homo sapiens with 8 samples.

Results

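The 56 genes described here encode proteins that build the mitotic spindle, attach chromosomes to it and separate them. They were chosen by gene name and matched through the transcript accession of each probe (SGO1 is listed on older designs as SGOL1). All 56 were found among 20296 genes with a named probe, and all 56 passed the filter on dim genes, which kept 15811 genes whose signal was well above background on at least 1 array. RNA came from MCF10A cells, an immortalised line of human breast epithelium that does not form tumours, with p53 (p53+/+) and from a derivative without it (p53-/-). Cells were plated a day before treatment and were either harvested at once without drug (0 h) or given adriamycin (ADR, also called doxorubicin) for 2 h and harvested at 12, 24 and 48 h. The labels give 0.5 µg/ml of drug, whereas the published methods state another concentration. Each genotype and time point had 1 single-colour array, 8 arrays in all, and the values below carry no replicate error. No untreated array at 12, 24 or 48 h was analysed here, so ADR and time in culture cannot be told apart within a genotype. The sources used here do not say whether the p53-/- line is a single clone.

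In mitosis, duplicated chromosomes condense, their kinetochores are caught by spindle microtubules, and the spindle assembly checkpoint holds the cell until every pair is attached. The anaphase-promoting complex then marks securin and cyclin B for destruction, separase cuts cohesin, and the sister chromatids part. Most of these transcripts are made only in late S phase, G2 and mitosis, so in a bulk culture their level follows both the share of cells in those phases and the amount of RNA in each such cell. These cannot be told apart here. p53 is known to lower many of them after DNA damage, through CDKN1A (p21) and the DREAM complex, which binds CHR and related promoter elements.

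Facts of the arrays that touch these results are as follows. Levels are log2 signals relative to the 75th percentile of the array, whose signal over the time course was 1015, 818, 816 and 661 for p53+/+ and 879, 1118, 1141 and 1199 for p53-/- cells. Values are listed below in the order 0, 12, 24 and 48 h, and the first of each p53+/+ series is from the array labelled p53+/+ 0 h. CDKN1A, a p53 target, read -1.14, 2.54, 2.63 and 2.70 in p53+/+ cells, against -2.97, -0.96, -0.64 and -0.48 without p53. MDM2, another p53 target, read -1.66, 1.29, 1.49 and 1.76 against -1.33, -2.04, -1.33 and -1.57. Of 383 other genes at least 4-fold apart between all treated p53+/+ arrays and all p53-/- arrays, 4 lay nearer the treated p53+/+ mean on the array labelled p53+/+ 0 h. Whether ADR had not yet moved these genes or the label is wrong cannot be told apart, so that array is called by its label throughout, and comparisons that do not use it lead. Of 10 markers of mammary basal epithelium, 9 or 10 were well above background on each array. Their summed linear level was 202, 344, 384 and 452 in p53+/+ cells, against 115, 174, 127 and 151 without p53. LAMB3 was the highest of the 10 on every array and weighs most in that sum. Their median log2 level was 1.70, 3.38, 3.51 and 3.81 against 1.68, 1.50, 1.87 and 1.89. TP63, a basal transcription factor, was well above background on 3 of the 8 arrays only. CDH1 (E-cadherin) read -3.13 at 0 h and 1.42 to 2.10 after ADR in p53+/+ cells, and -3.55 to -0.94 in p53-/- cells. Of 6 markers of other cells 5 were measured, with a summed linear level of 0.876 to 2.03 on the p53+/+ arrays and 1.81 to 2.34 on the p53-/- arrays. PECAM1 (endothelium) read -2.39, -4.77, -6.04 and -5.57 in p53+/+ cells, against -2.05, -2.22, -1.59 and -1.93 without p53. COL1A1 (fibroblasts) read -3.21, -5.43, -5.59 and -6.23, against -2.31, -2.92, -3.11 and -3.35. Both were thus lower in treated p53+/+ cells alongside the 56 genes (limma adjusted p = 0.00182 and 0.00179) and not well above background there. CD68 read -0.51 to 0.85, and PTPRC and ESR1 -3.68 or below. The part of these marker shifts in the results below was not tested. On the p53+/+ 48 h array 0 synthetic spike-in transcripts were well above background, against 6 on each of the other 7 arrays. Array position and genotype cannot be told apart.

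The promoters of the 56 genes are shown first. RefSeq promoters (GRCh38.p14, 250 bases before to 50 after the start, the first listed start of each gene) were at hand for 47 of the 56. The CHR element, searched as TTTGAA or TTTAAA on both strands, occurred in 38 of the 47 (80.9%), against 24.3% of all 27305 promoters and 17.4% of the 12448 promoters of genes measured here. It lay within 50 bases of the start in 33 of the 47 (70.2%), against 4.96% of measured genes. The letters CCAAT on either strand occurred in 34 (72.3%), against 36.6%, and both elements in 28 (59.6%), against 7.03%. E2F letters (TTTCGCGC, TTTCCCGC, TTTGGCGC or TTTGCCGC) occurred in 3 (6.38%), against 4.96%. A match describes the letters only, and a link between these letters and the level of a transcript was not tested. Among the 47, the promoters of the 5 genes with the lowest mean treated difference that hold a CHR, and that of PTTG1, which had the highest, are printed 5′ to 3′ on the gene's strand, with CHR and CCAAT letters of either strand in capitals. They lie at chr2:26785806-26786105 (CENPA, + strand), chr1:43358731-43359030 (CDC20, + strand), chr5:138178862-138179161 (KIF20A, + strand), chr1:44739587-44739886 (KIF2C, + strand), chr2:168890381-168890680 (SPC25, - strand) and chr5:160421605-160421904 (PTTG1, + strand).
CENPA: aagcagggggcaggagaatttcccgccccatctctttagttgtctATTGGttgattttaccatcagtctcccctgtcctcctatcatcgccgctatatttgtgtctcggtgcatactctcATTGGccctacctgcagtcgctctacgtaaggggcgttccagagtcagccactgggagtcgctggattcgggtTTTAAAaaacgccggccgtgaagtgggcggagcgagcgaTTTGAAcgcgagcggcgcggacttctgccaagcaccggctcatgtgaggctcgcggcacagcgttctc
CDC20: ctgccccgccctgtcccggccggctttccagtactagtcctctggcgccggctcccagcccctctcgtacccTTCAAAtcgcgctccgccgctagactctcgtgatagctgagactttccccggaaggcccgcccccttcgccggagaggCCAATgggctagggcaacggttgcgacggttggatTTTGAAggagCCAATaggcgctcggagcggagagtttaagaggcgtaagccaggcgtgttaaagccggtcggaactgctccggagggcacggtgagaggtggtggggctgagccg
KIF20A: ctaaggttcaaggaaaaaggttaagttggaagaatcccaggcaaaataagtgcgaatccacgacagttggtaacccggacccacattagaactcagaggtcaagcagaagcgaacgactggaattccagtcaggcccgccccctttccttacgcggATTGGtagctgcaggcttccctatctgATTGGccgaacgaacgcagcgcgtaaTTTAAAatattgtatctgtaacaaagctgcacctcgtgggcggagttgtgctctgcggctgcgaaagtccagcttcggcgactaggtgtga
KIF2C: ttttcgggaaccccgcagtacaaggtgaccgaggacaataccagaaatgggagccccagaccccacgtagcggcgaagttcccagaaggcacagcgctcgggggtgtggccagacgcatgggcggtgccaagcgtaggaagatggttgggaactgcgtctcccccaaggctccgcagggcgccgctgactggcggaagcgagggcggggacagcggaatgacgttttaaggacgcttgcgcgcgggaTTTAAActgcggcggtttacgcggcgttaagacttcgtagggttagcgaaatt
SPC25: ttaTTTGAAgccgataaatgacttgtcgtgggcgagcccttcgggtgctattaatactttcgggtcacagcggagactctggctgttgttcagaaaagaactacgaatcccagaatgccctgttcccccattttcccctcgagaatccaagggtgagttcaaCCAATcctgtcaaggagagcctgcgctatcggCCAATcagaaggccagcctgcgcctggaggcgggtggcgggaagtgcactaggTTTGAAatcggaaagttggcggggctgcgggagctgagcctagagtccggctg
PTTG1: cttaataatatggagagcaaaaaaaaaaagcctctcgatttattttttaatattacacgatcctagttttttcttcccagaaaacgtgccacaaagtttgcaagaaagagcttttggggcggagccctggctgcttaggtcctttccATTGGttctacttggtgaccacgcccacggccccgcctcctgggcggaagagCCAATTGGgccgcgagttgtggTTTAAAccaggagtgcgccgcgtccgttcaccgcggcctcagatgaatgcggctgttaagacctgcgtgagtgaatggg
CENPA, CDC20 and SPC25 each hold 2 CHR and 2 CCAAT matches. KIF20A holds 1 CHR and 2 CCAAT, and KIF2C 1 CHR and 0 CCAAT. PTTG1 holds 1 CHR and 3 CCAAT, of which the last pair overlaps on opposite strands. Its transcript was not 2-fold lower at any matched time. The 9 promoters without a CHR match, among them those of AURKB, BUB1 and TACC3, belonged to genes that were lower in treated p53+/+ cells as well.

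After ADR, p53+/+ cells had far less of nearly all of these transcripts than p53-/- cells, and the gap was widest at 48 h. The median level of the 56 was -0.33, -0.25 and -3.83 in p53+/+ cells at the treated times, against 1.35, 1.74 and 1.96 without p53. The median of all genes lay between -0.78 and -0.70 on those arrays, but the scaling of each array holds it nearly level. Without scaling the median difference at 12, 24 and 48 h was -0.37, -0.52 and -0.76 for all genes. For the 56 it was then -1.96, -2.29 and -6.74. A difference of at least 2-fold was called. By that rule 44, 51 and 54 of 56 were lower in p53+/+ cells at 12, 24 and 48 h, against 9.7, 14.0 and 15.5% of all genes, and 0 were higher, against 12.8, 13.1 and 16.0%. At all 3 times 43 were lower, against 5.92% of genes, and at both 12 and 24 h also 43, against 7.41%. For 54, by the probe taken for each gene, every treated p53+/+ level lay below every treated p53-/- level, against 19.9% of genes. Without the 48 h arrays the same 54 did not overlap, against 29.9%. The exceptions were BUB3 and PTTG1. The median of the mean treated difference was -3.14, and -1.68 over 12 and 24 h alone. Means use each signal as measured, also where it was not well above background, so for 27 genes they are not exact and their order is not settled. From repeated spots within arrays, the technical SD of a difference between 2 arrays for a probe printed in 2 spots, as for 37 of the genes, was 0.07 to 0.09 above a level of -2, 0.17 from -4 to -2 and 0.43 below -4. For the 14 genes with 1 spot it was 0.09 to 0.13, 0.24 and 0.60. It does not cover cultures or labelling.

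**Figure D1:**
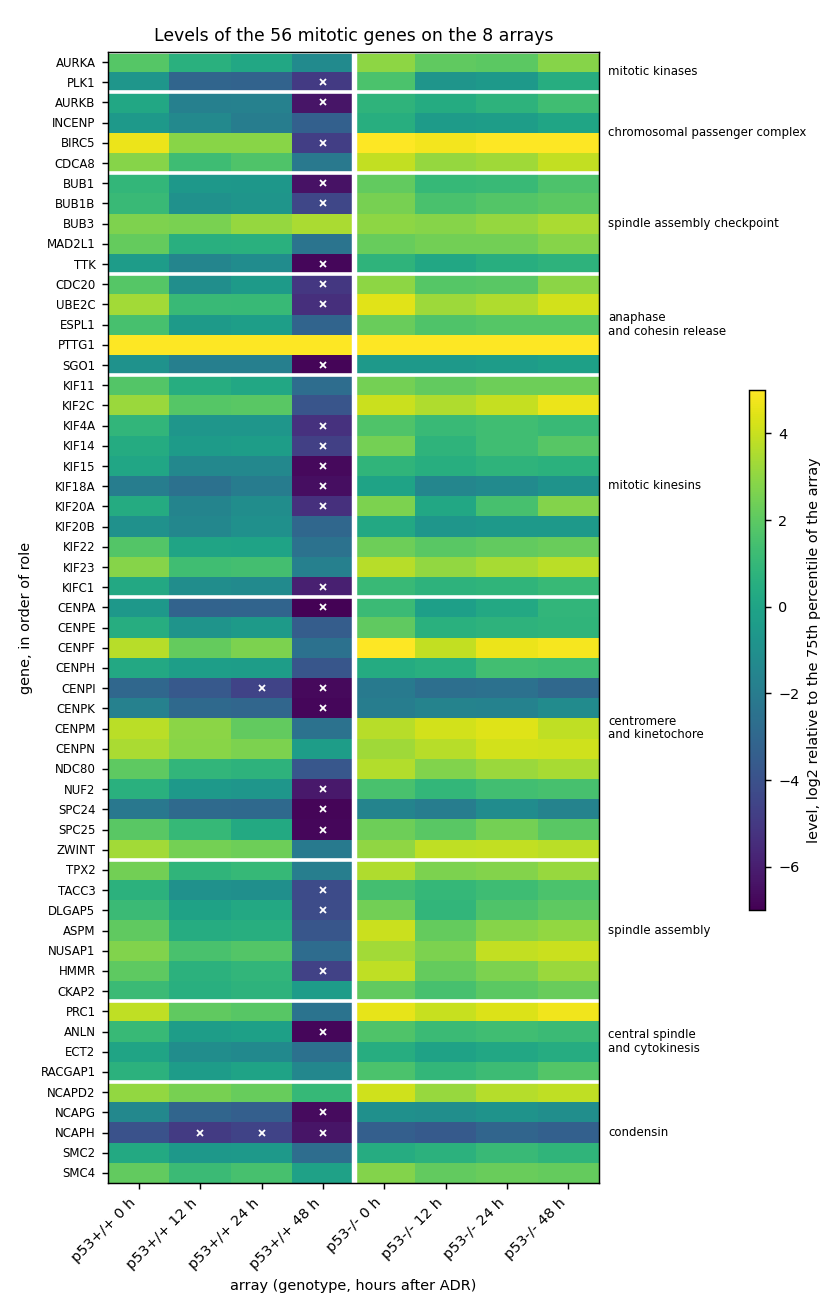
Each row is 1 of the 56 genes, ordered by role, and each column 1 array. Colour gives the level (log2 relative to the 75th percentile of the array, cut at -7 and 5, so PTTG1 on all arrays and BIRC5 and CENPF on some p53-/- arrays lie above the scale). White crosses mark the arrays where a gene was not well above background, 27 genes on the p53+/+ 48 h array and 0 on any p53-/- array. Most genes have their lowest level in the p53+/+ 48 h column.

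**Figure D2:**
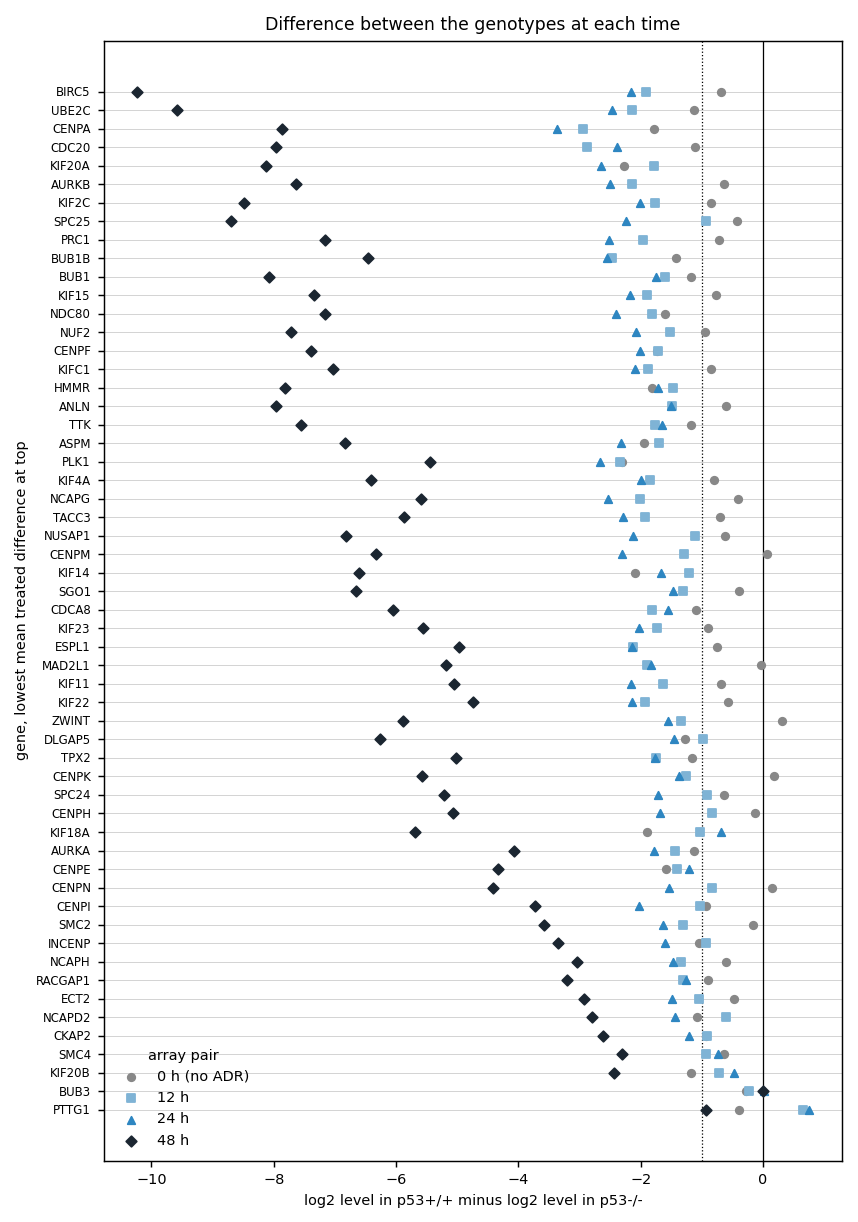
Each row is 1 gene and each marker its log2 level in p53+/+ minus p53-/- cells at 0, 12, 24 or 48 h, 1 array pair each. The dotted line marks 2-fold lower in p53+/+ cells. The 48 h markers lie to the left of the other 3 for 55 genes, all but BUB3, and for 27 genes they are drawn at a signal that was not well above background in p53+/+ cells.

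Both mitotic kinases were lower. PLK1, which drives entry into mitosis and spindle assembly, read -0.69 on the array labelled p53+/+ 0 h. The treated p53+/+ arrays gave -3.07, -3.16 and -4.96. In p53-/- cells it read 1.61 at 0 h, then -0.72, -0.49 and 0.49. PLK1 thus fell by 2.38 and 2.33 on the log2 scale by 12 h in p53+/+ and p53-/- cells, and from 12 to 48 h it rose in p53-/- cells. At 48 h it was not well above background in p53+/+ cells and at least 34.6-fold below p53-/- cells. Such bounds compare the bright array with the lowest signal that counted as well above background on the dim array, or with the gene's own signal there if higher. AURKA, the kinase of spindle poles, read 1.84, 0.63, 0.17 and -1.26 in p53+/+ cells, against 2.97, 2.07, 1.96 and 2.81 without p53.

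The 4 genes of the chromosomal passenger complex, which corrects wrong attachments and guides cytokinesis, were all lower. BIRC5 (survivin), its inner subunit, read 4.63, 2.85, 2.86 and -4.76 in p53+/+ cells, against 5.31, 4.77, 5.01 and 5.48 without p53. It was well above background at 12 and 24 h but not at 48 h, when it was at least 1098-fold under p53-/- cells. AURKB, the kinase of the complex, read 0.19, -1.76, -1.74 and -6.34 against 0.82, 0.39, 0.75 and 1.30. INCENP, the scaffold, moved least, with -0.54, -1.37, -1.91 and -3.31 against 0.50, -0.44, -0.32 and 0.05. CDCA8 (borealin) was 1.82, 1.56 and 6.05 log2 units lower at 12, 24 and 48 h.

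Of the 5 checkpoint genes, 4 were lower and BUB3 was not. BUB1B (BubR1), part of the complex that inhibits CDC20, read 1.12, -0.91, -0.75 and -4.47 in p53+/+ cells, against 2.54, 1.57, 1.81 and 2.00 without p53. MAD2L1, its partner, started level in the 2 genotypes, with 2.18 and 2.21 at 0 h, and then read 0.55, 0.62 and -2.39 against 2.45, 2.45 and 2.80. BUB1 and TTK, the checkpoint kinases, were not well above background at 48 h in p53+/+ cells, and were at least 77.1- and 41.9-fold under p53-/- cells. BUB3, which brings BUB1 and BUB1B to kinetochores, read 2.66, 2.59, 3.11 and 3.49 against 2.94, 2.81, 3.08 and 3.49, so the genotypes overlapped. BUB3 had another probe, for a different transcript, that read 2.56, 2.39, 2.39 and 1.92 against 2.77, 2.48, 2.46 and 2.31. The probes moved in opposite directions by 48 h in both genotypes and neither differed 2-fold between them.

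Among the genes of anaphase and cohesin release, 4 of 5 were lower. CDC20, the activator of the anaphase-promoting complex, read 1.85, -1.05, -0.46 and -5.05 in p53+/+ cells, against 2.96, 1.82, 1.94 and 2.91 without p53. Its change from the array labelled p53+/+ 0 h to 12 h, -2.91, was the lowest of the 56. UBE2C, the ubiquitin-conjugating enzyme of that complex, read 3.34, 1.11, 1.09 and -5.38 against 4.48, 3.26, 3.56 and 4.19. It was at least 452-fold lower at 48 h. ESPL1 (separase) and SGO1, the protector of centromeric cohesin, were lower by 2.13 and 1.31 log2 units at 12 h. Another SGO1 probe, for a different transcript, differed by 0.11, -0.69 and -4.72 at 12, 24 and 48 h, and by it the genotypes overlapped. The early difference of SGO1 thus depends on the probe. PTTG1 (securin), the inhibitor of separase, read 5.74, 6.19, 6.74 and 5.59 against 6.13, 5.54, 5.99 and 6.53. It lay above p53-/- cells by 0.65 and 0.75 at 12 and 24 h and below by 0.94 at 48 h, none of these 2-fold. PTTG1 has near-identical copies (PTTG2 and PTTG3P), so its signal may be shared with them.

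All 11 mitotic kinesins had a lower mean in treated p53+/+ cells. KIF20A, a motor of the central spindle, read 0.38, -1.57, -1.13 and -5.36 in p53+/+ cells, against 2.65, 0.22, 1.51 and 2.77 without p53. It had the largest early fall in p53-/- cells, -2.44, and was back at its 0 h level by 48 h. KIF2C (MCAK), which takes microtubules apart at kinetochores, read 3.19, 1.82, 1.94 and -3.84 against 4.05, 3.59, 3.95 and 4.64. KIF11 (Eg5), which pushes spindle poles apart, read 1.81, 0.46, 0.20 and -2.70 against 2.50, 2.10, 2.37 and 2.35. By the probes used, KIF20B and KIF18A were least apart before 48 h. KIF20B differed by -0.72 and -0.47 at 12 and 24 h, and KIF18A by -1.03 and -0.68, and both were past 2-fold at 48 h. Another KIF20B probe, for a different transcript, differed by -1.36, -1.16 and -5.23 at 12, 24 and 48 h. The small early difference of KIF20B thus depends on the probe.

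All 13 centromere and kinetochore genes had a lower mean in treated p53+/+ cells. CENPA, the histone H3 variant that marks centromeres, read -0.61, -3.18, -3.14 and -6.94 in p53+/+ cells, against 1.18, -0.23, 0.23 and 0.92 without p53. It was the member furthest apart at 12 and 24 h, by -2.95 and -3.37, and at least 46.7-fold at 48 h. The Ndc80 complex binds microtubules. Its subunit SPC25 read 1.92, 1.02, 0.27 and -6.77 against 2.34, 1.94, 2.51 and 1.92, and NDC80 itself 2.02, 0.89, 0.77 and -3.75 against 3.63, 2.71, 3.18 and 3.41. CENPF, a fibrous outer kinetochore protein, read 3.70, 2.19, 2.62 and -2.54 against 5.44, 3.91, 4.64 and 4.85. Some genes of the constitutive network that joins CENPA to the outer plate lay above their 0 h level in p53-/- cells. CENPM read 3.76, 2.91, 2.12 and -2.47 in p53+/+ cells but 3.70, 4.20, 4.43 and 3.86 in p53-/- cells. CENPH read 0.24, -0.26, -0.31 and -3.81 but 0.37, 0.58, 1.38 and 1.26, and was the 1 gene of the 56 that rose at least 2-fold in p53-/- cells, at 24 h. Without scaling of the arrays CENPM, CENPN, ZWINT and SMC2 passed 2-fold at that time as well. That made 5 of the 56, against 17.5% of all genes. With scaling it was 1 of the 56, against 9.65%. ZWINT, which recruits the Rod-Zw10-Zwilch complex, read 3.32, 2.50, 2.33 and -2.12 but 3.01, 3.84, 3.89 and 3.77. CENPI was dim throughout and not well above background at 24 and 48 h in p53+/+ cells.

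Spindle assembly genes were all 7 lower. HMMR, a microtubule-binding protein of the poles, read 2.03, 0.70, 0.92 and -4.61 in p53+/+ cells, against 3.84, 2.17, 2.64 and 3.21 without p53. ASPM, another pole protein, read 2.09, 0.45, 0.51 and -3.79 against 4.03, 2.15, 2.84 and 3.05. Both fell in p53-/- cells too at 12 h, when HMMR fell by 1.67 and ASPM by 1.88 on the log2 scale. TPX2, the activator of AURKA, read 2.43, 0.86, 1.03 and -1.86 against 3.59, 2.61, 2.79 and 3.16. CKAP2 moved least, with 1.18, 0.59, 0.76 and -0.37 against 2.12, 1.50, 1.97 and 2.25.

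The 4 genes of the central spindle and cytokinesis were lower. PRC1, which bundles antiparallel microtubules, read 3.85, 2.05, 1.87 and -2.43 in p53+/+ cells, against 4.57, 4.01, 4.39 and 4.73 without p53. ANLN (anillin), of the contractile ring, was not well above background at 48 h in p53+/+ cells and was at least 55.3-fold lower. ECT2, the activator of RhoA at the cell equator, read 0.00, -1.14, -1.31 and -2.52 against 0.49, -0.08, 0.17 and 0.41. RACGAP1, its partner in centralspindlin, differed by -1.31, -1.25 and -3.20.

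Condensin genes, which compact chromosomes, were all 5 lower by their mean, with a median difference of -1.95, the nearest to 0 of the 9 role groups as measured. NCAPG, a subunit particular to condensin I, read -1.40, -3.08, -3.39 and -6.65 in p53+/+ cells, against -0.99, -1.06, -0.86 and -1.05 without p53. The ATPases SMC4 and SMC2 belong to both condensins. SMC4 read 2.12, 1.18, 1.52 and -0.14 against 2.76, 2.12, 2.26 and 2.16, and SMC2 0.27, -0.61, -0.51 and -2.73 against 0.43, 0.71, 1.13 and 0.86. NCAPD2, another subunit of condensin I, read 3.04, 2.54, 2.20 and 1.04 against 4.12, 3.14, 3.64 and 3.85. NCAPH, whose mean difference is the median of the group, was dim throughout and not well above background at 12, 24 and 48 h in p53+/+ cells. The size of that median is thus not exact.

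**Figure D3:**
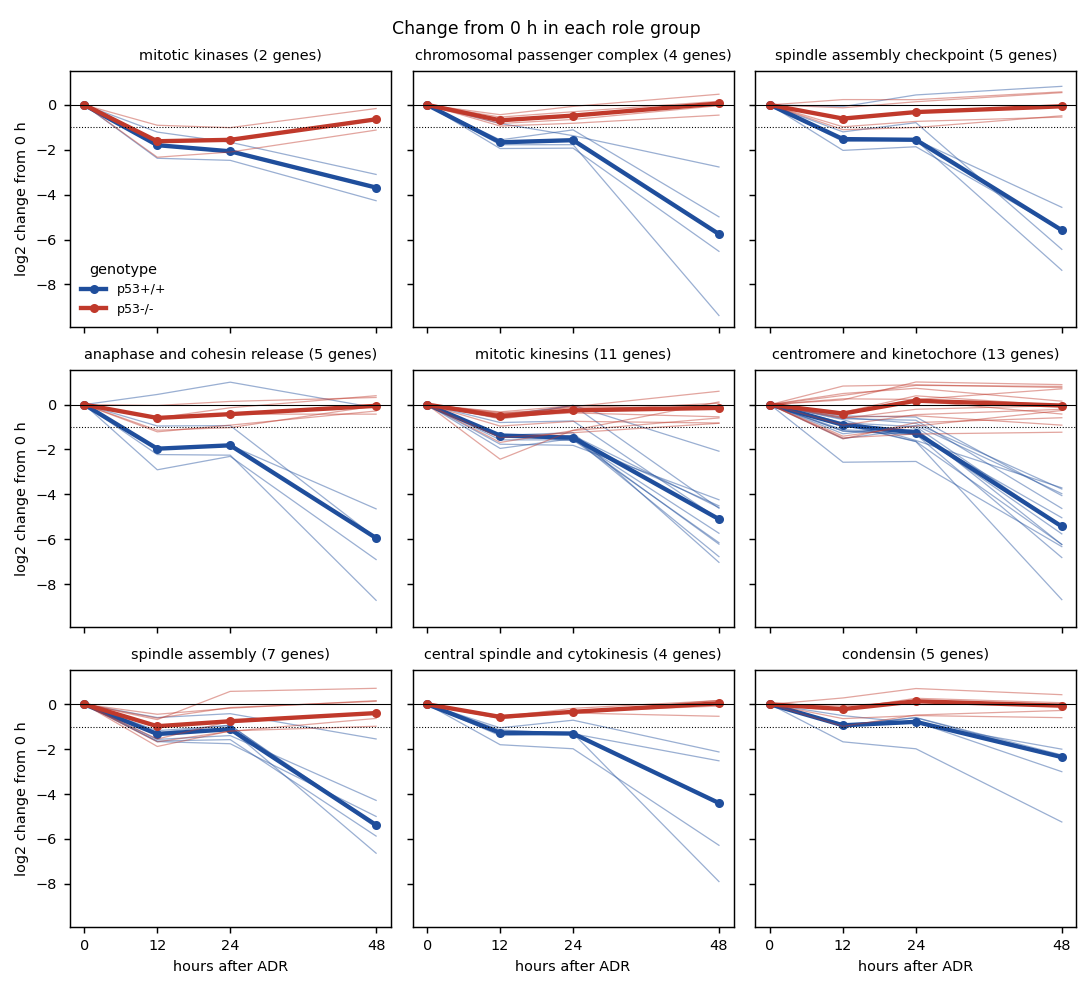
Thin lines are single genes and thick lines the median of a role group, as log2 change from the 0 h array of the same genotype (blue p53+/+, red p53-/-) against hours after ADR. The dotted line marks a 2-fold fall; p53+/+ medians are flat from 12 to 24 h and drop by 48 h, least in condensin, while p53-/- medians return towards 0.

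Within p53+/+ cells the fall came in 2 steps. Against the array labelled p53+/+ 0 h, 37, 36 and 54 of 56 were lower by at least 2-fold at 12, 24 and 48 h (10.8, 14.3 and 12.3% of all genes), 0 were higher (13.1, 15.7 and 19.0%), and the median change was -1.28, -1.33 and -5.07. Against the p53-/- 0 h array, 50, 50 and 54 were lower (11.0, 13.7 and 12.1% of genes). At all 3 times 32 were lower than the array labelled p53+/+ 0 h (6.39% of genes), and 32 were lower than both 0 h arrays, against 4.16% of genes. From 12 to 24 h 48 of 56 moved by under 0.5 on the log2 scale, as did 71.3% of all genes, 0 fell 2-fold, against 4.25%, and 0 rose, against 4.59%. From 24 to 48 h 55 of 56 fell at least 2-fold, against 6.07% of genes, with a median of -3.84. BUB3 was the exception. PTTG1 was among the 55, with -1.15. This late step rests on the p53+/+ 48 h array, on which 0 spike-ins were well above background. With background correction by the normexp method its median was -2.14 and 49 genes passed 2-fold (2.81% of all genes). With each dim signal raised to the floor of its array the median was -3.12 and 53 passed (4.96%). On that array 52.7% of all probes were well above background, against 53.1% at 12 h and 49.8% at 24 h.

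The bounds at 48 h span a wide range. Of the 27 genes not well above background there, BIRC5, UBE2C and HMMR had the largest bounds against p53-/- cells, at least 1098-, 452- and 226-fold, and NCAPH and CENPI the smallest, at least 2.50- and 3.17-fold. Among the 29 genes measured on all 8 arrays, 27 were lower than in p53-/- cells at 48 h (10.5% of genes so measured), and the median of their mean treated difference was -2.84.

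In p53-/- cells a smaller group fell early and mostly came back. At 12, 24 and 48 h, 13, 10 and 2 of 56 were lower than at 0 h by at least 2-fold (5.62, 5.34 and 7.51% of all genes), and 0, 1 and 0 were higher (4.82, 9.65 and 14.9%). The medians were -0.60, -0.32 and -0.07. The 13 at 12 h were PLK1, BUB1, CDC20, UBE2C, KIF14, KIF18A, KIF20A, CENPA, CENPE, CENPF, DLGAP5, ASPM and HMMR. PLK1 (-2.33, -2.10 and -1.12) and CENPE, a kinetochore motor (-1.48, -1.31 and -1.23), were still lower at 48 h. KIF20A went from -2.44 to -1.14 and 0.12, and CENPA from -1.41 to -0.95 and -0.26. From 12 to 48 h 9 genes rose at least 2-fold in p53-/- cells, against 12.5% of genes. At all 3 times 41 stayed within 2-fold of 0 h, as did 71.6% of genes. AURKA passed 2-fold at 24 h (-1.01). Without scaling of the arrays 10, 1 and 0 were lower (2.72, 2.45 and 3.2% of genes) and 1, 5 and 7 higher (10.5, 17.5 and 26.6%), and 15 rather than 35 genes lay below their 0 h level at 48 h, so the small p53-/- changes have no settled direction.

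MAD2L1, CENPH, CENPK, CENPM, CENPN, ZWINT and SMC2 lay below 0 h in p53+/+ cells and above it in p53-/- cells at all 3 times, as did 11.1% of all genes. The share among the genes described here was about the same, so this pattern does not set them apart from all genes. By the probes used, the p53-/- rises ran from 0.15 (CENPM at 48 h) to 1.01 (CENPH at 24 h) on the log2 scale. CENPN, which reads the CENPA nucleosome, read 3.46, 2.88, 2.62 and -0.31 in p53+/+ cells, against 3.30, 3.71, 4.16 and 4.11 without p53. CENPK, a subunit beside CENPH, read -1.74, -2.92, -3.06 and -6.78 against -1.91, -1.65, -1.68 and -1.21. By the probes used, the genotypes differed by at most 0.30 for these 7 genes at 0 h. Another CENPN probe, well above background on all 8 arrays, differed by 0.60.

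The change from 0 h could be compared between genotypes only through the array labelled p53+/+ 0 h. At 12 h it was lower in p53+/+ cells by at least 2-fold for 19 of 56 (13.8% of all genes) and higher for PTTG1 (16.9%). At 24 h 31 were lower (17.6%) and PTTG1 and KIF18A higher (15.9%). At 48 h 54 were lower (18.7%) and 0 higher (19.4%). For PLK1 the 12 h changes were -2.38 and -2.33, and for CENPF -1.52 and -1.53, so their 12 h genotype difference was already there at 0 h. For KIF14, KIF18A and KIF20A the p53-/- change at 12 h was the larger, -1.69, -1.47 and -2.44 against -0.80, -0.61 and -1.95. MAD2L1 was furthest the other way, with 0.24 against -1.63.

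**Figure D4:**
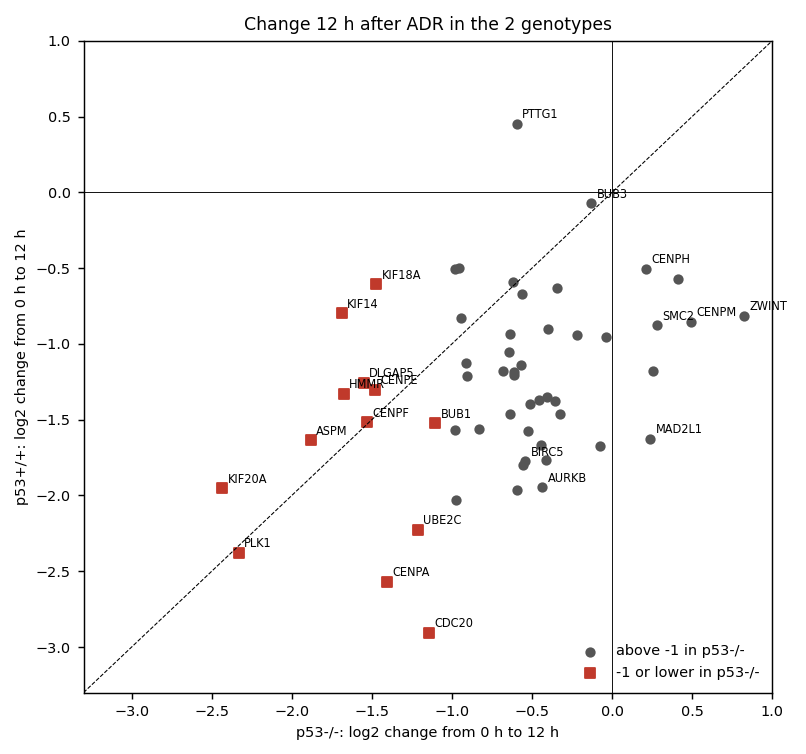
Each point is 1 of the 56 genes, its log2 change from 0 h to 12 h in p53-/- cells across and in p53+/+ cells upward; the dashed line marks equal change. Red squares are the 13 genes that fell at least 2-fold in p53-/- cells, with KIF20A, KIF14 and KIF18A among those above the line and CDC20 and CENPA below it. ZWINT, CENPM, SMC2 and MAD2L1 lie to the right of 0 across and below 0 upward.

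Before treatment the genes were lower on the array labelled p53+/+ 0 h than on the p53-/- array for 22 of 56 by at least 2-fold (5.38% of all genes), and higher for 0 (4.25%), with a median of -0.86. PLK1 (-2.30), KIF20A (-2.27), KIF14 (-2.10), ASPM (-1.94) and KIF18A (-1.90) were furthest apart, and ZWINT (0.30) was the highest. Of the 13 genes that fell at 12 h in p53-/- cells all 13 were among the 22, but both counts use the p53-/- 0 h array. Without scaling 12 were lower at 0 h (3.49% of genes).

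Taking the 3 treated times of a genotype as replicates, limma (15811 genes, 4 residual degrees of freedom) gave an adjusted p under 0.05 for 20 of 56, all lower in p53+/+ cells (10.2% of genes were called lower and 12.8% higher). These p-values set the difference against movement over time, not against the spread of cultures. The 20 included PLK1 (-3.49, SE 0.58, adjusted p = 0.00920 from limma), AURKA (-2.43, SE 0.52, adjusted p = 0.0194 from limma), CENPA (-4.73, SE 1.03, adjusted p = 0.0214 from limma) and CDC20 (-4.41, SE 1.17, adjusted p = 0.0396 from limma). BIRC5 (-4.77, SE 2.00) had an adjusted p of 0.135 from limma. For PLK1, CENPA, CDC20 and BIRC5 the mean includes a 48 h signal that was not well above background, so its size is not exact. At an unadjusted p under 0.05, 48 were lower (17.1% of genes). Without the 48 h arrays 42 of 56 were lower at the adjusted threshold (6.84% of genes) and 0 higher (7.72%), against 5 without the 12 h arrays (6.4%) and 0 without the 24 h arrays (0.493%), where 31 were lower at an unadjusted p under 0.05 (9.25%). With time as a block limma called 9 of 56 (9.49% of genes), with adjusted p = 0.0336 for PLK1, 0.0456 for CENPA, 0.0503 for AURKA and 0.0678 for CDC20. Over these 4 fits the adjusted p of the 4 genes ranged from 0.00784 to 0.150. Without the 48 h arrays BIRC5 passed and KIF20A (adjusted p = 0.0513 from limma) did not. The interaction of genotype and treatment gave 0 calls by limma at an adjusted p under 0.05 (1.05% of genes were called lower and 1.44% higher) and 0 at an unadjusted p under 0.05 (9.09%). Without the 48 h arrays it gave 0 (0.335%) and 22 (1690 of 15811 genes). On simulated data, changed genes were lowered by the same amount at every treated time. The fit over treated arrays found 72% of those lowered by 2 log2 units and 91% of those lowered by 4. The interaction fit found 10% and 60%, and false calls numbered 9 and 4. The difference of most of the 56 genes widened at 48 h, so these shares do not describe them.

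Of 110 other genes of chromosome segregation and kinesin transport, 109 were measured and 54 had a mean treated difference of at least 2-fold lower, against 54 of the 56. Further regulators of mitosis moved like the 56, with 27 of 29 lower and a median of -3.12. TOP2A, the topoisomerase that untangles sister chromatids, read 1.52, -0.04, 0.30 and -6.50 in p53+/+ cells, against 2.86, 1.89, 2.53 and 2.71 without p53. Other centromere genes were mixed, with 16 of 25 lower. HJURP, the chaperone that loads CENPA, had a mean difference of -5.20, while CENPT, which anchors the Ndc80 complex, had 0.78. Of the 3 condensin II genes all 3 were lower (NCAPG2 -3.16, NCAPH2 -1.34). The other lists held fewer such differences. None of 13 genes of the anaphase-promoting complex, 12 subunits and the activator FZR1, was 2-fold apart, from FZR1 (-0.91) to the subunit CDC16 (0.42). CDC20, the other activator, and UBE2C were. Of 10 cohesin genes 3 were lower, SMC3 most (-1.52). Of 14 transport kinesins KIF5C was lower (-2.74) and KIF3B higher (1.06), against all 11 mitotic kinesins lower. Of 15 spindle scaffold genes 4 were lower, HAUS8 most (-2.90). Lists differ in size and level, and no test between them was made. Over all 15811 genes 1738 had a mean difference of at least 2-fold lower and 1873 higher, with a median of 0.05.

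**Figure D5:**
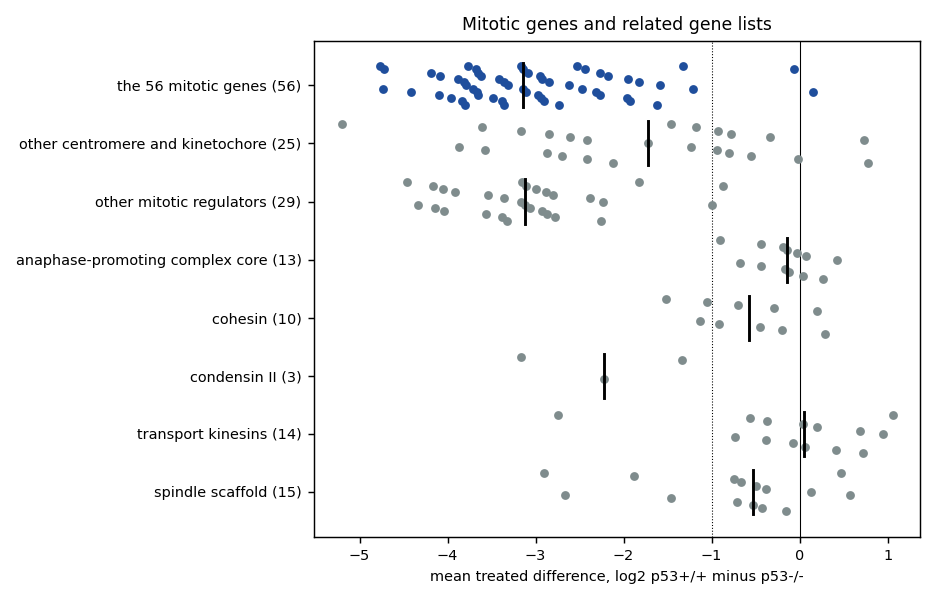
Each point is 1 gene, its mean log2 difference between treated p53+/+ and treated p53-/- cells over 12, 24 and 48 h, by list with the number measured; black bars are medians and the dotted line marks 2-fold lower. The 56 mitotic genes and the other mitotic regulators lie mostly below -2, while the list of the anaphase-promoting complex (its core and FZR1) and the transport kinesins lie around 0.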

How the data were processed

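Single-colour Agilent arrays were read with Feature Extraction 10.7.3.1 (hg19 annotation), and the authors deposited the scanner output, whose processed signal is a background-corrected intensity on a linear scale. From it log2 intensity minus the 75th percentile of the array was computed here. Control and outlier spots were left out and spots of a probe averaged, which left 42391 probes, of which 27227 were named (20296 genes) through RefSeq accessions. Each gene took its probe with the highest mean level, and tests covered the 15811 genes that 1 or more arrays measured well above background. The members and lists were chosen with earlier results of these data known. With 1 array per condition, differences were called at 2-fold and had no replicate error, so the number of arrays limits the precision. Fits used limma 3.58.1 in R 4.3.3 with Benjamini-Hochberg adjustment over 15811 genes and were tested on simulated data. Other steps used Python 3.11.15, numpy 2.4.6 and pandas 2.3.3. Genes named were the lowest and highest of each role group and list by mean treated difference, the 10 lowest of all, those above -1, those that rose in p53+/+ or fell in p53-/- cells by at least 2-fold, and CDKN1A and MDM2 as a check of genotype. A further gene of that check is not reported here. Other members given by value were chosen after their values were seen. Alternatives were quantile, median and no scaling, normexp (offset 50), a signal floor, other probe and filter rules, a 3-fold rule, the p53-/- 0 h baseline, time as a block and leaving out each time.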

Additional observations from a re-analysis of the deposited data

How the results depend on the processing

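The labels give no replicate numbers, so arrays could be matched by time only, with time as a block. The reported median mean change was -2.60 in p53+/+ and -0.30 in p53-/- cells, the median mean treated difference was -3.14, and limma called 20 genes lower. In the order p53+/+ change and treated difference, these medians were -2.69 and -3.26 with quantile normalization, -2.75 and -3.28 with median scaling, -3.01 and -3.74 with no scaling, and -2.07 and -2.52 with normexp. With a signal floor the treated difference was -2.96, and with the p53-/- 0 h baseline the p53+/+ change was -3.57. No scaling turned the p53-/- median to 0.085 and left 1 gene lower at 24 h and 0 at 48 h (2.45 and 3.20% of all genes). Median scaling left 4 lower at 48 h in p53-/- cells (9.30% of all genes). Without scaling the median of all genes itself shifted by -0.55 in the mean treated difference. For the 29 genes that each of the 8 arrays measured well above background, the counts at 12, 24 and 48 h were smaller, since fewer genes entered. In p53+/+ cells 17, 16 and 27 fell below 0 h by 2-fold or more (8.14, 11.9 and 10.1% of genes so measured). Their median mean change was -2.41. Without p53 the counts were 3, 3 and 1 (3.61, 4.37 and 7.16%). Between genotypes 20, 25 and 27 were lower (7.33, 9.72 and 10.5%), with a median mean treated difference of -2.84. A 3-fold rule left 15 and 17 at 12 and 24 h in p53+/+ cells, 5, 1 and 0 in p53-/- cells, and 27 between genotypes at 12 h. The shares of all genes at 3-fold are not given here, so these counts are not set against them. The limma count (20, with 10.2% of all genes called lower) was 33 with no scaling (34.4%), 49 with normexp (12.0%), 39 with a signal floor (11.7%) and 9 with time as a block (9.49%), and ranged from 0 to 42 when each time was left out. Except for the smaller counts over fewer genes and the stricter rule, the cause was not tested. The interaction count stayed at 0 in every alternative run. Under 7 scalings and probe rules 54 genes lay below p53-/- cells at all treated times, all but BUB3 and PTTG1. No share of all genes is given for that rule, so this count is not set against a background. Signal over background limited the p53+/+ 48 h array, where 27 genes have only bounds.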
